A study of Mus musculus with 30 samples.

Results

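The 37 genes described here are type I interferon-stimulated genes, that is, genes whose transcription rises when cells sense interferon alpha or beta. They were taken by name from a fixed list and all 37 were found among the 55401 genes of the series. Tumours grown from GFP-carrying 4T1 cells, a mouse mammary carcinoma line, were the source of all 30 libraries, in 6 groups of 5. The wild-type mice had received a control IgG1 (CTRL) or the antibody C269, which is directed at extracellular NAMPT and was given for 1 month, 2 times a week, with 2.5 mg/kg stated as its dose. From these tumours, 4T1-GFP cells were obtained by sorting, and CD4+ and CD8+ T cells were obtained with magnetic beads. Nothing in the labels ties the 5 libraries of a group to different mice, so the spread that the p-values rest on may be partly technical.

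Type I interferons bind a receptor made of IFNAR1 and IFNAR2. The receptor's kinases JAK1 and TYK2 phosphorylate STAT2, which acts with IRF9 in the complex ISGF3. ISGF3 binds the interferon-stimulated response element, ISRE, in the promoters of these genes, and many of their products detect or block viruses. In tumours, this response is known for its part in antigen presentation and T cell priming, and for its induction by DNA and RNA sensing inside tumour and myeloid cells.

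The ISRE core was searched as GAAANNGAAA on both strands in the RefSeq promoter windows of GRCm38.p6, which run from 250 bases before to 50 bases after a gene's start. Of the 37 genes, 27 had a window, and 15 of these (55.6%) held the core, against 3.99% of the 27025 genes with a window. A match describes the letters only. The 150 bases before the start of 4 genes named below are shown 5′ to 3′ on the gene's strand, with matches to the core in capitals. Rsad2 (chr12:26456453-26456602, minus strand) held 1 match, Isg15 (chr4:156200819-156200968, minus strand) held 3 overlapping matches and Ifit1 (chr19:34640739-34640888, plus strand) held 2. Oasl1 (chr5:114923090-114923239, plus strand) held none in these letters. The 150 bases before the start of Stat2 and Ifih1, which are not shown, also held none, though the whole window of each held 1.
Rsad2: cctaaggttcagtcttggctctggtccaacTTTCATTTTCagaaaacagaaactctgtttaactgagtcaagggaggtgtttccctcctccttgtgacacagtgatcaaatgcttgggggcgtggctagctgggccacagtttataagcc
Isg15: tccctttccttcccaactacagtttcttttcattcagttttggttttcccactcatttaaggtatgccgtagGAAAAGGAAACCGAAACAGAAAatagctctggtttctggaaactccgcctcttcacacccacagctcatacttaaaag
Ifit1: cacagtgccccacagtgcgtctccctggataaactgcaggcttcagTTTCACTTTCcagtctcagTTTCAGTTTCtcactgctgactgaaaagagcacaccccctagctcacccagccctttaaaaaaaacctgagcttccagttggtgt
Oasl1: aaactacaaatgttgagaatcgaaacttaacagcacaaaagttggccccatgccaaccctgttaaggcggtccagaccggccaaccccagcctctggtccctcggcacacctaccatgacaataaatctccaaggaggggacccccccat

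Levels are given as CPM, that is, counts scaled to the library's total over genes. These totals ran from 2005579 to 5176494. The libraries carry the numbers 1 to 30 of the deposited columns. Differences and fold changes are log2 values, and SE is their standard error. A gene was called where the adjusted p of edgeR's quasi-likelihood test, adjusted by Benjamini-Hochberg over all genes tested, was under 0.05. T cell markers (5 of 5 found) summed to 806 to 1804 CPM in CD4 CTRL, to 2200 to 2821 CPM in CD8 CTRL and to 7.02 to 153 CPM in 4T1 CTRL. The 806 CPM was that of library 14, and the other CD4 CTRL libraries had 1633 to 1804 CPM. The CD4 T cell list (Cd4, Foxp3 and Cd40lg) summed to 155.8 CPM in library 14 and to 326.2 to 370.2 CPM in the others. The epithelial list (Krt8, Krt18, Krt19, Epcam and Cdh1), which should mark 4T1 cells, summed to 209 to 563 CPM in 4T1 CTRL, beside 203 to 311 CPM for CD4 CTRL and 35.1 to 100.5 CPM for CD8 CTRL, so that the 4T1 and CD4 ranges overlapped. The 4T1 libraries are therefore called by their label only. Libraries 9 and 10 of 4T1 C269 stood apart: their intestinal goblet list (Muc2, Tff3 and Spink4) summed to 5011 and 5963 CPM, against at most 14.5 CPM in any other library, and their epithelial list to 5509 and 5287 CPM. Results on 4T1 C269 are given with and without them.

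**Figure D1:**
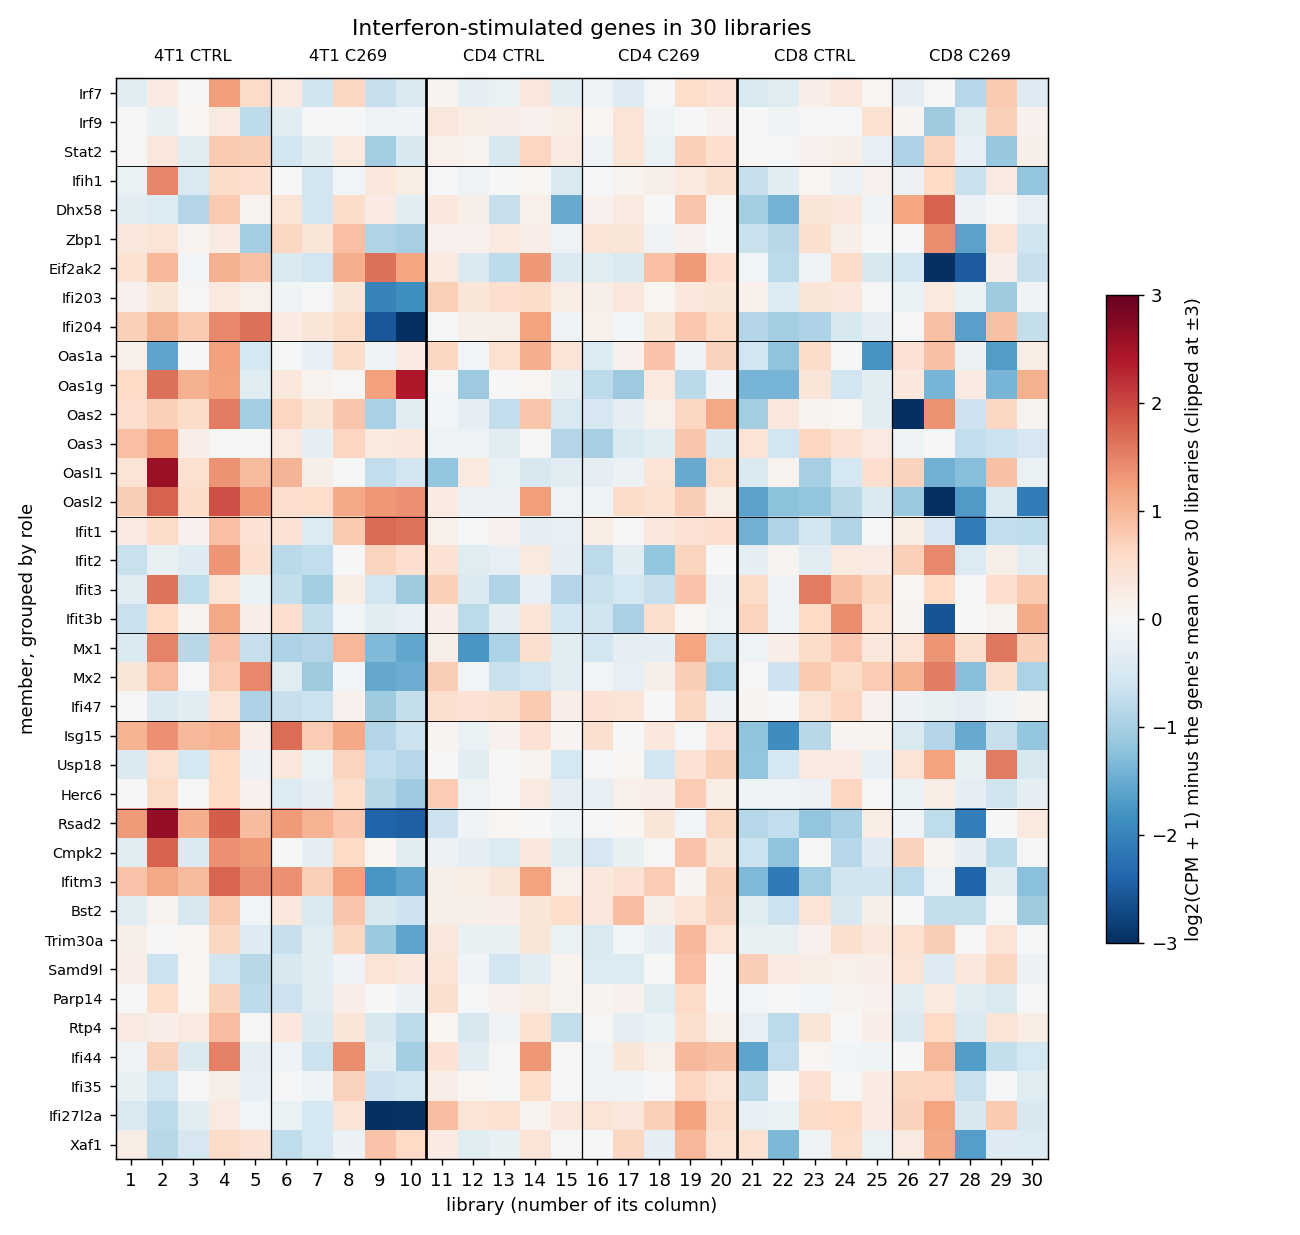
Level of each of the 37 genes in each of the 30 libraries, as log2(CPM + 1) minus the gene's own mean over the 30 libraries, with genes grouped by role and libraries by group. Red is above and blue below the gene's mean. Rsad2, Ifitm3 and Ifi204 are blue in libraries 9 and 10, where Ifit1 is red.

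In CTRL tumours, 8 of the 36 tested genes were higher in 4T1 than in CD4 libraries and none was lower, beside all 13201 genes tested, of which 7.01% were called higher and 5.71% lower. Against CD8 libraries, 9 of 36 were higher in 4T1 and none lower, where 22.7% of all genes were called higher and 17.9% lower, so the share of higher calls was near that of all genes. With library totals alone or with limma, 5 were higher than in CD4 and 2, Ifi27l2a and Ifi47, lower. These settings also moved the median of all genes, to -0.093 and -0.16. Ifi47 was also called lower by DESeq2 (-0.54, adjusted p = 0.0449), and without library 1 (adjusted p = 0.0457) or 4 (0.0246) of 4T1. Ifi27l2a was also called lower without library 4 of 4T1 (adjusted p = 0.0436) or library 14 of CD4 (0.0408). In these fits the median of all genes ran from -0.017 to 0.034. Against CD8, library totals alone and limma each called 8 higher and 1, Samd9l, lower. By edgeR, Samd9l was also called lower without library 1 (adjusted p = 0.0214) or 3 (0.0341) of 4T1, and Ifi47 without library 4 (0.0291). The median log2 difference over the 36 genes was 0.48 against CD4 and 0.29 against CD8, beside medians of -0.0034 and 0.01 over all genes tested. Without library 4 of 4T1 these medians were 0.27 and 0.18, with 12 and 13 of 36 genes lower in 4T1, and by limma the median against CD4 was 0.305. These comparisons come from 1 fit, and each pair of them shares 5 CTRL libraries. Between the T cell populations, 3 of 36 were lower in CD8 than in CD4 and none higher, beside 9.09% and 3.47% of all genes. In bulk RNA, fewer cells of a type and less RNA per cell cannot be told apart.

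Rsad2, which encodes viperin, an enzyme that makes a chain-terminating nucleotide, had 412, 1056, 359.5, 601 and 327 CPM in libraries 1 to 5 of 4T1 CTRL. The CD4 CTRL libraries 11 to 15 had 109, 157, 177, 167 and 153 CPM, and the CD8 CTRL libraries 21 to 25 had 92.1, 100.2, 73.1, 85.03 and 198 CPM. All 5 4T1 values lay above all 10 T cell values, and library 2 was the highest. The log2 difference was 1.92 (SE 0.305, adjusted p = 0.000614) against CD4 and 2.31 (SE 0.31, adjusted p = 2.5e-05) against CD8. Cmpk2, the neighbouring gene on chromosome 12 and a mitochondrial nucleotide kinase, had 18.2, 80.9, 16.6, 61.2 and 56.8 CPM in 4T1 CTRL and 17.1 to 28.8 CPM in CD4 CTRL. Library 3 lay below the CD4 range, library 1 within it and the other 3 above it. Its difference was 1.24 (SE 0.366, adjusted p = 0.0339) against CD4 and 1.57 (SE 0.373, adjusted p = 0.00303) against CD8, and the call against CD4 was lost in 8 of 15 alternative fits, which are other settings and single libraries left out.

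Many members of the OAS family make the second messenger that switches on RNase L. Of its 5 tested genes, 3 were higher in 4T1 than in CD4 (7.01% of all genes) and 2 higher than in CD8 (22.7%). Oasl1, whose product lacks this activity and is known to restrain translation of Irf7, had 95.6, 437, 99.2, 184 and 141 CPM in 4T1 CTRL. CD4 CTRL had 31.1, 88.4, 62.5, 51.5 and 57.3 CPM, with no overlap. Its difference was 1.76 (SE 0.388, adjusted p = 0.00689) against CD4 and 1.55 (SE 0.386, adjusted p = 0.00413) against CD8, where library 25 at 102 CPM overlapped with 4T1. Oasl2 had 56.9, 117.5, 49.7, 132.7 and 84.8 CPM in 4T1 CTRL. The CD4 CTRL values were 40.5, 29.8, 29.98, 81.5 and 30.5 CPM, and those of CD8 CTRL 10.5, 13.9, 14.4, 18.5 and 24.7 CPM. The 3 populations followed in that order, and only library 14 of CD4 reached the 4T1 range. Oasl2 differed by 1.14 (SE 0.304, adjusted p = 0.0199) between 4T1 and CD4, by 2.42 (SE 0.322, adjusted p = 2.27e-05) between 4T1 and CD8 and by -1.28 (SE 0.315, adjusted p = 0.0115) between CD8 and CD4. Oas3 passed against CD4 only (0.97, SE 0.301, adjusted p = 0.0428; 0.30, adjusted p = 0.446 against CD8), and the difference between these differences was not tested. Of the calls against CD4, that of Oas3 was lost in 9 of 15 alternative fits and that of Oasl2 in 3, and that of Oasl1 was kept in all 15.

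Ifitm3, a membrane protein that blocks entry of enveloped viruses, had 1073, 1321, 1142, 1999 and 1596 CPM in 4T1 CTRL. It had 668, 695, 761, 1374 and 664 CPM in CD4 CTRL, and 237, 136, 285, 391 and 388 CPM in CD8 CTRL. CD8 lay below both other populations in every library, and library 14 was the only CD4 library within the 4T1 range. The difference was 2.32 (SE 0.268, adjusted p = 6.75e-06) between 4T1 and CD8, 0.88 (SE 0.257, adjusted p = 0.0323) between 4T1 and CD4 and -1.44 (SE 0.261, adjusted p = 0.00121) between CD8 and CD4. Ifi204, of the family of DNA-binding interferon-inducible proteins, had 97.7, 126, 103, 164 and 188 CPM in 4T1 CTRL. It had 58.3, 67.9, 67.9, 138 and 54 CPM in CD4 CTRL, and 28.9 to 48.3 CPM in CD8 CTRL. It showed the same order of populations, again with library 14 as the high CD4 value. Library 14 also had the lowest T cell sum of CD4 CTRL (806 CPM), and the part of this in its levels was not tested. Ifi204 was called in all 3 comparisons. Its differences were 1.90 (SE 0.253, adjusted p = 2.24e-05), 0.92 (SE 0.244, adjusted p = 0.0195) and -0.98 (SE 0.248, adjusted p = 0.0136) in the same 3 comparisons. Against CD4, the call of Ifitm3 was lost in 7 of 15 alternative fits and that of Ifi204 in 4. Of the 50-base stretches of Ifi204, 20.02% also occur in other genes, 14.8% in Ifi211, so its reads may be shared.

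Isg15, a ubiquitin-like protein that is joined to other proteins, had 165, 206, 157, 164 and 91.8 CPM in 4T1 CTRL. It had 84.5, 68.8, 86.4, 107 and 84.03 CPM in CD4 CTRL, and 33.8, 21.2, 44.02, 83.9 and 85.5 CPM in CD8 CTRL. All 4T1 values lay above the CD8 values, and library 5 lay within the CD4 range. The difference was 0.96 (SE 0.299, adjusted p = 0.0429) against CD4, where the call was lost in 10 of 15 alternative fits, and 1.57 (SE 0.306, adjusted p = 0.000658) against CD8. Usp18, which removes ISG15 and damps the receptor, did not pass in either (0.27, adjusted p = 0.603 and 0.26, adjusted p = 0.497). Ifit1, which binds viral RNA caps, was 1.21 higher (SE 0.242, adjusted p = 0.000823) and Ifih1, the RNA sensor MDA5, 0.69 higher (SE 0.267, adjusted p = 0.0479) in 4T1 than in CD8. The call of Ifih1 was lost in 10 of 15 alternative fits, and its difference was 0.36 (adjusted p = 0.201) without library 2. The genes whose groups did not overlap numbered 2 of 36 in 4T1 over CD4 (2.82% of all genes), 6 of 36 in 4T1 over CD8 (13.7%) and 3 of 36 in CD8 under CD4 (11.6%).

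None of the transcription factors of the list passed in the CTRL comparisons. Irf9 averaged 94.2 ± 24.1 CPM in 4T1 CTRL, 117.2 ± 6.31 CPM in CD4 CTRL and, in CD8 CTRL, 106.4 ± 17.6 CPM (SD, n = 5). Stat2 averaged 80.3 ± 25, 70.1 ± 19 and 62.5 ± 7.23 CPM in these groups. Irf7, the factor that amplifies interferon production, averaged 171.5 ± 77.2, 119.8 ± 24.3 and 123.4 ± 29.4 CPM. Over these 3 genes and 3 comparisons the adjusted p ran from 0.0972 to 0.882. Without library 1, Irf7 was called higher in 4T1, by 0.72 (adjusted p = 0.04) against CD4 and by 0.60 (adjusted p = 0.0415) against CD8. By role, the OAS family had the highest median in 4T1 over CD4 (0.97, 4 of 5 positive) and over CD8 (0.81, 5 of 5), and the 4 IFIT genes had medians of 0.66 and -0.021.

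The calls in 4T1 against CD4 depended on the libraries and settings, and 2 of 8 were kept in all 15 alternative fits, against 8 of 9 in 4T1 over CD8 and 3 of 3 in CD8 under CD4. Leaving out 1 library at a time gave 2 to 9 genes called higher: 5 without library 2 or library 4 of 4T1, 4 without library 11 and 2 without library 12, 13 or 15 of CD4. The 9 came without library 14 of CD4. Calls over all genes moved as well, with 925 higher and 754 lower in the main fit. In either direction they numbered 1000, 998 and 1003 without library 12, 13 or 15, and 1938 without library 14. Rsad2 and Oasl1 passed in each fit with 1 library left out, with adjusted p up to 0.0029 and 0.022. Against CD8, 8 to 11 genes passed. The neutrophil list (6 of 6 with counts in every 4T1 CTRL library) summed to 3753 to 13540 CPM in 4T1 CTRL, against 567 to 856 CPM in CD4 and 249.8 to 499.6 CPM in CD8 CTRL. The macrophage and monocyte list (8 of 8) summed to 776 to 4606, 570.4 to 2355 and 892 to 1606 CPM, and the fibroblast list (4 of 4) to 2188 to 34820, 441 to 3981 and 202 to 576 CPM. In CD8 CTRL, Ly6c2 alone made up 462 to 701 CPM of the macrophage and monocyte sum. The part of these other cells in the differences was not tested.

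**Figure D2:**
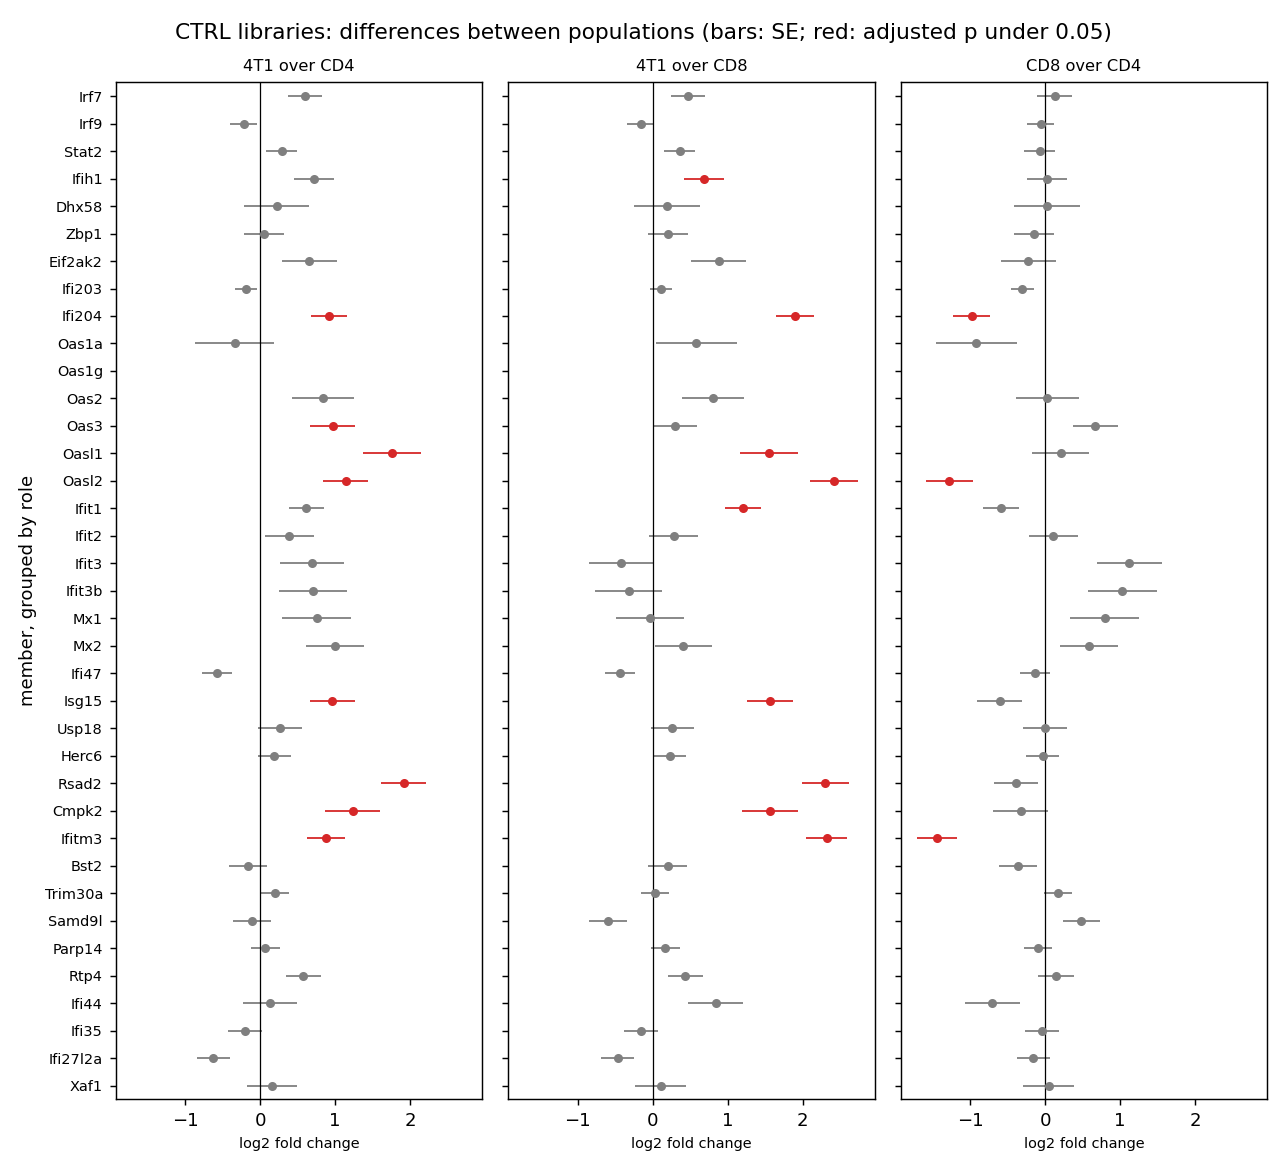
Log2 differences of each gene between populations in the 15 CTRL libraries, with the SE as bars and genes called at an adjusted p under 0.05 in red. The red points number 8 in 4T1 over CD4, 9 in 4T1 over CD8 and 3 in CD8 over CD4. Oas1g was not tested.

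**Figure D3:**
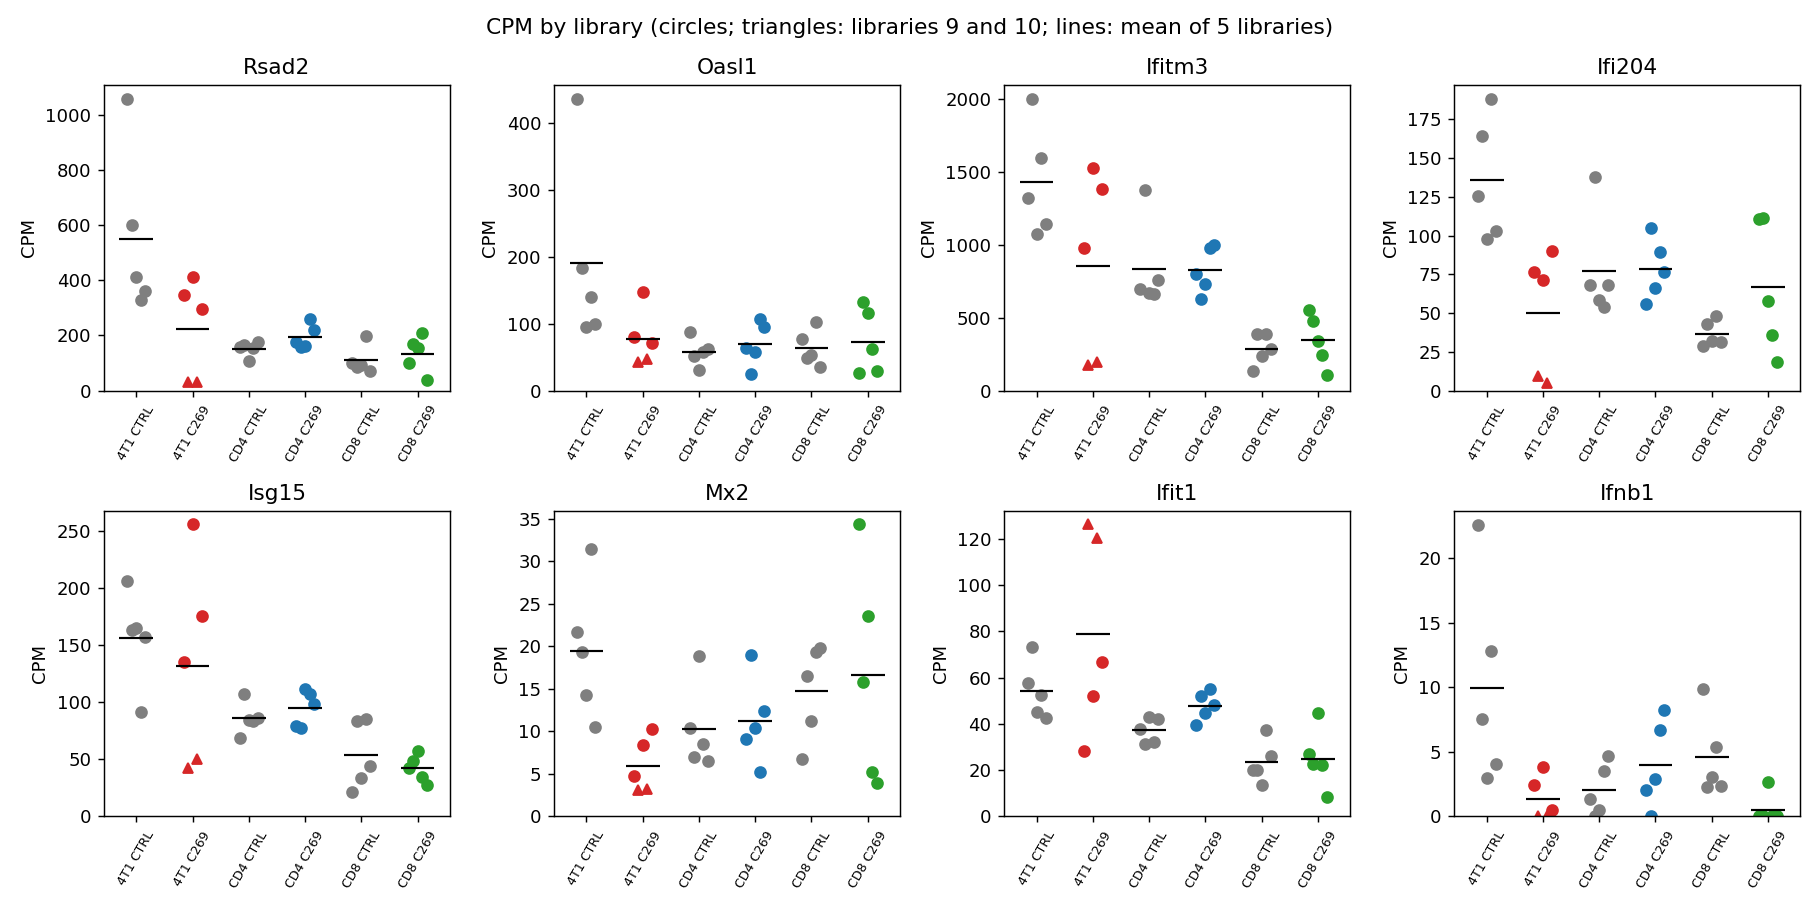
CPM of 7 interferon-stimulated genes and of Ifnb1 in each library, by group, with triangles for libraries 9 and 10 and lines for the mean of 5 libraries. Rsad2 in the 4T1 CTRL libraries, at 327 to 1056 CPM, lies above all CD4 and CD8 CTRL libraries.

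After C269, none of the genes passed in any population. In 4T1, 27 of 37 tested genes had a lower estimate and 10 a higher one, with a median log2 fold change of -0.34 beside 0.04 over all genes, and edgeR called 0% of the 12875 genes tested. At an unadjusted p under 0.05, 4 genes were lower (4.86% of all genes) and none higher (7.23%). Without libraries 9 and 10, 25 of 37 had a lower estimate, the median was -0.18 beside 0.0012 over all genes, and 0% of 13750 genes were called. Then 2 genes were lower at an unadjusted p under 0.05 (3.77% of all genes) and none higher (1.69%). Single libraries moved this median by over 1.5 times. In the comparison of all 10 it was -0.20 without library 4, with 23 of 37 lower, and -0.53 without library 6, with 29 lower. With libraries 9 and 10 left out as well, it was -0.067 without library 4 and -0.025 without library 7, with 22 of 37 lower in each, and -0.31 without library 8, with 26 lower. In libraries 6 to 8 the T cell list summed to 178.5 to 205.4 CPM, above all 4T1 CTRL libraries (7.02 to 153 CPM). In the same 3 libraries the epithelial list summed to 343.9 to 1487 CPM, the macrophage and monocyte list to 689.7 to 2041 CPM and the neutrophil list to 2911 to 12580 CPM, each overlapping with 4T1 CTRL. Genes of the macrophage and monocyte list differed from each other. Over all 4T1 C269 libraries, C1qa (45.7 to 102.7 CPM) and C1qb (27.6 to 71.1 CPM) lay below all CTRL libraries (at least 102.8 and 82.3 CPM). The other genes of that list overlapped, and Ly6c2 reached 676.3 CPM against at most 150.8 CPM in CTRL. The part of these cells in the lower estimates was not tested.

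Mx2, one of the interferon-induced dynamin-like GTPases that trap viral components, had 14.3, 21.7, 10.5, 19.3 and 31.5 CPM in 4T1 CTRL and 8.35, 4.71, 10.3, 3.14 and 3.28 CPM in libraries 6 to 10 of 4T1 C269. Every C269 value lay below every CTRL value. The fold change was -1.66 (SE 0.455, adjusted p = 0.355), and -1.24 (SE 0.446, adjusted p = 0.809) without libraries 9 and 10. DESeq2 on the same counts gave -1.69 with an adjusted p of 0.0231, where it called 2.37% of all genes. Without libraries 9 and 10, DESeq2 gave -1.29 with an adjusted p of 0.29 and called none of the 37 genes, beside 0.611% of all genes. In the authors' deposited table Mx2 is the 1 gene of the list with an adjusted p under 0.05 (0.0185), where 4.5% of genes with an adjusted p are called. The annotation types Mx2 as a polymorphic pseudogene.

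Ifi204 had 71.3, 76.5, 89.9, 9.43 and 5.02 CPM in 4T1 C269, all below the 97.7 to 188 CPM of 4T1 CTRL. Its fold change was -1.36 (SE 0.676, adjusted p = 0.446), and -0.69 (SE 0.247, adjusted p = 0.809) without libraries 9 and 10. Mx2 and Ifi204 were the 2 genes of 37 whose groups did not overlap, both with and without those libraries, where 1.37% and 2.85% of all genes lay lower in C269 without overlap. Stat2 had 40.9, 48.6, 75.4, 29.4 and 43.7 CPM in 4T1 C269 against 48.8 to 106.9 CPM in CTRL, a fold change of -0.71 (SE 0.278, adjusted p = 0.367), and -0.48 (SE 0.274, adjusted p = 0.884) without libraries 9 and 10. Oasl1 (-1.16, adjusted p = 0.393), Cmpk2 (-0.91, adjusted p = 0.411) and Ifit3 (-0.94, adjusted p = 0.429) were next in order of p. Their values without libraries 9 and 10 were -0.76, -0.76 and -0.75, each with an adjusted p of 0.884. Irf9, at 79.5 to 98.7 CPM in C269, had a fold change of -0.00071 (SE 0.214), and 0.04 (SE 0.257) without libraries 9 and 10. Usp18 (-0.034, SE 0.369) and Irf7 (-0.47, SE 0.339) did not pass either, and had 0.35 (SE 0.323) and -0.18 (SE 0.343) without those libraries. By role, the estimates of the 3 interferon-induced GTPases were all lower, with a median of -0.79, and -0.32 without libraries 9 and 10. The 4 IFIT genes had medians of -0.37 and -0.54, and the 3 genes of the ISG15 system -0.16 and 0.35. Isg15 itself, at 256, 135.5, 176, 42.9 and 50.4 CPM in 4T1 C269, had fold changes of -0.16 (SE 0.484) and 0.38 (SE 0.304).

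Without libraries 9 and 10, the genes next to Ifi204 and Mx2 in order of p were Zbp1, Oasl2, Stat2 and Ifit2. Zbp1, a sensor of left-handed nucleic acid, had 66.5, 68.6, 56, 62.5 and 24.9 CPM in 4T1 CTRL and 81.03, 67.4, 98.9, 27.4 and 25.5 CPM in 4T1 C269. Without libraries 9 and 10, libraries 6 and 8 lay above all CTRL libraries, and the fold change was 0.64 (SE 0.309, adjusted p = 0.884). Oasl2 had 48.1, 49.4, 75.2, 84.4 and 88.7 CPM in 4T1 C269 (-0.52, SE 0.298, adjusted p = 0.884 without libraries 9 and 10), and Ifit2 11.5, 12.1, 20.8, 34.1 and 29.9 CPM (-0.74, SE 0.461, adjusted p = 0.884). For both genes, libraries 9 and 10 held the 2 highest values of 4T1 C269.

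Libraries 9 and 10 differed from the other 8 4T1 libraries gene by gene. For 14 of the 37 genes both lay below all 8, for 4 both lay above, for 12 both lay within the range of the 8, and for 7 only 1 of the 2 lay outside it. Rsad2 stood at 30.98 and 30.1 CPM against 297 to 1056 CPM, Ifitm3 at 175 and 197 CPM against 977 to 1999 CPM, and Ifi27l2a at 21.3 and 29.8 CPM against 139 to 311 CPM. Ifit1 stood at 126 and 120.2 CPM against 28.5 to 73 CPM, and Eif2ak2, the kinase PKR, at 54.6 and 39.2 CPM against 10.9 to 36.98 CPM. The neutrophil list summed to 365 and 369.6 CPM in these libraries against 2911 to 13540 CPM in the other 8, and the macrophage and monocyte list to 284 and 197 CPM against 689.7 to 4606 CPM. Their part in the lower values was not tested.

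In CD4 T cells, 28 of 36 tested genes had a higher estimate after C269 and 8 a lower one. The median was 0.12 beside 0.0047 over all genes, and edgeR called 0% of 12393 genes. None of the 36 reached an unadjusted p under 0.05, which 5.62% of all genes did. The smallest p was that of Ifih1, at 65.2, 61.6, 68.2, 71.8 and 49.5 CPM in CTRL and 66.2, 73.6, 76.97, 83.5 and 95.3 CPM in C269, with overlapping groups and a fold change of 0.31 (SE 0.144, adjusted p = 0.883). Rsad2 had 163, 175, 219, 159 and 261 CPM in CD4 C269, where libraries 18 and 20 lay above all CTRL libraries. Ifit1 (0.34, SE 0.17), Rsad2 (0.35, SE 0.174) and Xaf1 (0.40, SE 0.231) had higher estimates, and Ifi203 (-0.25, SE 0.128) and Ifi47 (-0.22, SE 0.155) lower ones, with adjusted p from 0.883 to 0.906. Library 19 alone held the highest value of 22 of the 37 genes in its group. Without it the median was 0.0094, with 19 of 36 genes higher. Without library 14 of CTRL the median was 0.208, with 29 higher, and without library 15 of CTRL it was 0.0596, with 21 higher.

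In CD8 T cells, 21 of 36 tested genes had a higher estimate and 15 a lower one, with a median of 0.0975 beside 0.0097 over all genes, and edgeR called 0.00914% of 10943 genes. By limma on log2(CPM + 1), the median was -0.054 and 20 of 36 were lower, beside a median of -0.083 over all genes. At an unadjusted p under 0.05, 2 were higher (4.48% of all genes) and 1 lower (2.15%). None of the 36 lay lower in C269 without overlap, beside 0.64% of all genes. Usp18 had 9.47, 15.6, 27.6, 27.3 and 18.96 CPM in CTRL and 30.01, 54.4, 19.6, 69.7 and 16.03 CPM in C269. Libraries 26, 27 and 29 lay above all CTRL libraries and the other 2 within their range, and the fold change was 0.95 (SE 0.427, adjusted p = 0.742). Ifi204 had 58.1, 110.7, 18.7, 111 and 36.2 CPM in C269 against 28.9 to 48.3 CPM in CTRL (0.87, SE 0.395, adjusted p = 0.742). Libraries 27 and 29 held the highest values of both genes. They also had the fewest counts (2005579 and 2024270) and genes detected (12208 and 13400) of all libraries. The epithelial list summed to 508.6 CPM in library 27. In library 29 the fibroblast list summed to 4170 CPM and the neutrophil list to 1949 CPM. Each was the highest sum among CD8 libraries, and its part was not tested. Ifi47, an immunity-related GTPase, had 109, 105, 102, 112 and 129 CPM against 123 to 193 CPM (-0.40, SE 0.167, adjusted p = 0.741). Dhx58, the sensor LGP2 (1.01, SE 0.493), Mx1 (0.62, SE 0.322) and Oas3 (-0.71, SE 0.345) did not pass either, with adjusted p from 0.742 to 0.752. Without library 27 the median was -0.12 and without library 28 it was 0.29.

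**Figure D4:**
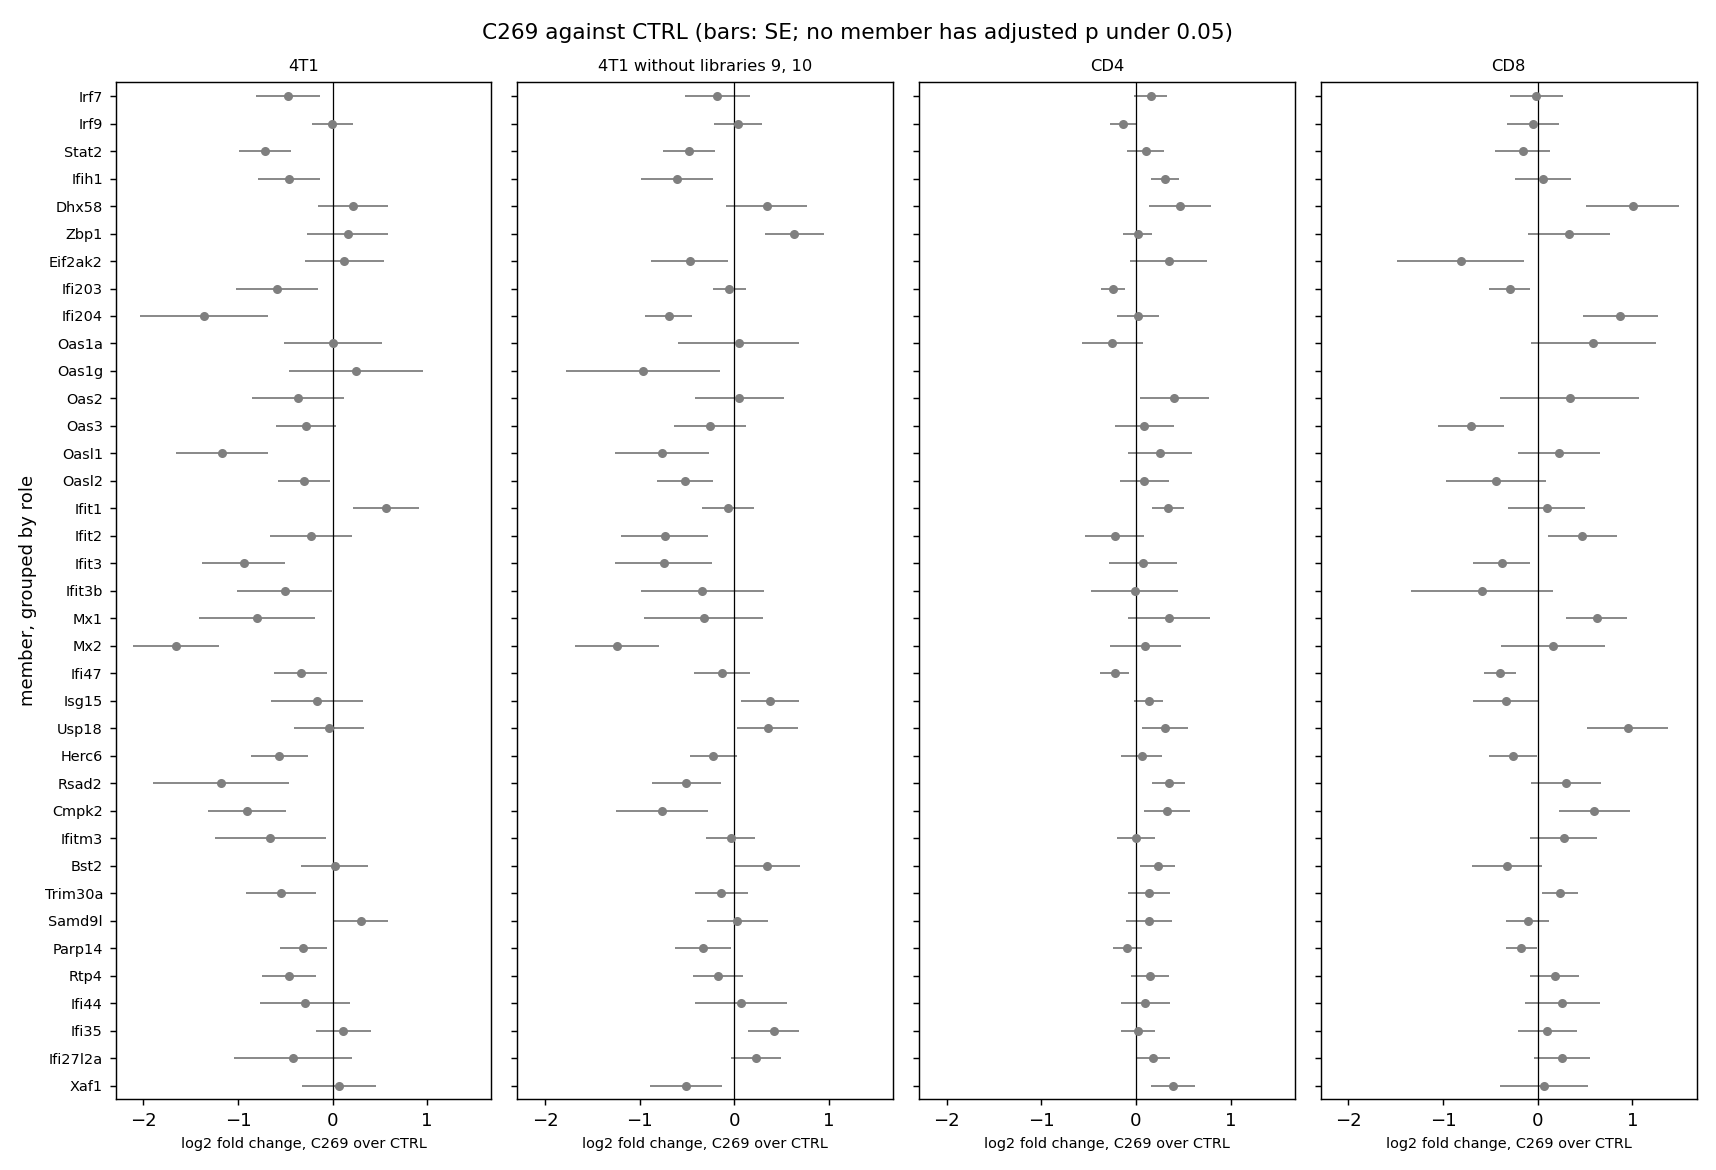
Log2 fold changes of each gene, C269 over CTRL, with the SE as bars, in 4T1 with all libraries and without libraries 9 and 10, in CD4 and in CD8. No gene has an adjusted p under 0.05, and the lowest point in 4T1 is Mx2 at -1.66.

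The C269 fold changes were compared between populations in a fit of all 30 libraries. None of the 37 genes passed between 4T1 and CD4 or between 4T1 and CD8, where 0.00679% of 14731 genes were called in each, nor between CD8 and CD4, where 0% were called. At an unadjusted p under 0.05, 4 genes were lower in 4T1 minus CD4 (2.86% of all genes) and none higher (6.54%), and 3 were lower in 4T1 minus CD8 (6.96%) and none higher (9.33%). Between CD8 and CD4 none reached it, beside 3.84% of all genes. Ifi204 differed by -2.17 between 4T1 and CD8 (SE 0.71, adjusted p = 0.136). DESeq2 gave -2.31 for it with an adjusted p of 0.0441, where it called 3.08% of all genes. When libraries 9 and 10 were left out, edgeR gave -1.50 (SE 0.493, adjusted p = 0.319) and DESeq2, a fit added after the data were seen, -1.67 (adjusted p = 0.123). Mx2 differed by -1.71 (SE 0.692, adjusted p = 0.434) between 4T1 and CD4 and by -1.74 (SE 0.693, adjusted p = 0.211) between 4T1 and CD8, and without libraries 9 and 10 by -1.30 (SE 0.724, adjusted p = 1) and -1.34 (SE 0.726, adjusted p = 0.467). Without these libraries none of the 37 genes passed by edgeR in either comparison, where 0% and 0.0063% of 15880 genes were called, or by DESeq2, where 0% and 0.264% were. At an unadjusted p under 0.05, edgeR then had 1 gene lower in 4T1 minus CD4 (1.85% of all genes) and 2 lower in 4T1 minus CD8 (5.99%). The median difference over the 37 genes was -0.34 in 4T1 minus CD4 and -0.49 in 4T1 minus CD8, beside 0.079 and 0.113 over all genes. Without libraries 9 and 10 it was -0.296 and -0.23, beside 0.02 and 0.03 over all genes.

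Libraries of a group differed from each other over many of the genes together. The mean log2(CPM + 1) over the 37 genes ran from 5.48 to 6.33 in 4T1 CTRL, from 4.935 to 5.96 in 4T1 C269, from 5.26 to 5.835 in CD4 CTRL, from 5.32 to 5.96 in CD4 C269, from 4.89 to 5.55 in CD8 CTRL and from 4.69 to 5.54 in CD8 C269. The ranges of CTRL and C269 overlapped in each population. Library 4 held the highest value of its group for 23 of the 37 genes, library 8 for 24 and library 14 for 22. Library 28 was above its group's median for 0 genes. In 6 of 6 groups the library with the highest mean was also the one with the highest sum of the macrophage and monocyte list, at 4606 CPM in library 4, 2041 in library 8, 2355 in library 14, 1730.0 in library 19, 1606 in library 24 and 1930.0 in library 27. For the other 13 of the 14 marker lists this held in at most 3 groups. Of this list, Ly6c2 alone had 462 to 701 CPM in CD8 CTRL and 374 to 703 CPM in CD8 C269. It had 70.5 to 94.8 CPM in CD4 CTRL, 78.1 to 209 CPM in CD4 C269, 40.9 to 151 CPM in 4T1 CTRL and 9.43 to 676 CPM in 4T1 C269. C1qa had 45.7 to 102.7 CPM in 4T1 C269. In CD8 and 4T1 C269 libraries the sum therefore need not follow macrophages or monocytes. The match of highest libraries was noticed after the values were seen, and the part of these cells in the levels was not tested.

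**Figure D5:**
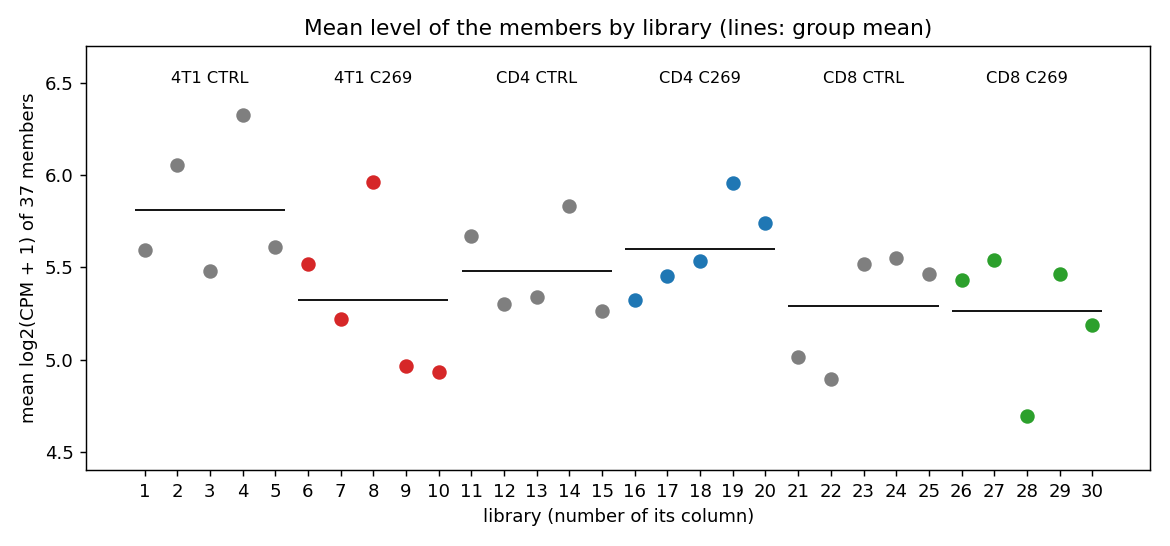
Mean log2(CPM + 1) over the 37 genes in each library, by group, with lines for the group means. Library 4, at 6.33, is the highest and library 28, at 4.69, the lowest, and CTRL and C269 libraries overlap in each population.

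Other genes of the pathway came from a list of 89 names, of which 86 were found. Among the 15 ligand genes, 10 had no count in any library, and Ifnb1, which encodes interferon beta, was the one with counts in most libraries (22 of 30). Ifnb1 had 2.99, 22.6, 4.03, 7.53 and 12.8 CPM in 4T1 CTRL and 3.84, 2.46, 0.49, 0 and 0 CPM in 4T1 C269. Library 2 was the highest, as it was for Rsad2 and Oasl1. The fold change of Ifnb1 was -2.67 (SE 1.12, adjusted p = 0.393), and -1.91 (SE 0.895, adjusted p = 0.884) without libraries 9 and 10.

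Of the receptor and kinase genes, Ifnar2 had 62.7 to 111.6 CPM in 4T1 CTRL against 24.95 to 60.01 CPM in CD4 and 34.5 to 60.5 CPM in CD8 CTRL, above both without overlap. Its difference was 1.14 (SE 0.22, adjusted p = 0.00282) against CD4 and 0.97 (SE 0.221, adjusted p = 0.0021) against CD8. Ifnar1 went the other way against CD8 (-1.13, SE 0.279, adjusted p = 0.00392), at 27.01 to 50.04 CPM in 4T1 CTRL and 62 to 115 CPM in CD8 CTRL. Jak1 (-1.44, adjusted p = 6.14e-05) and Tyk2 (-1.26, adjusted p = 0.0242) were also lower in 4T1 than in CD8. Shisa5 was lower in 4T1 than in CD4 (-1.34, SE 0.238, adjusted p = 0.00155) and in CD8 (-1.71, SE 0.241, adjusted p = 3.76e-05). Of 69 tested pathway genes, 7 were higher and 5 lower in 4T1 than in CD4, beside 7.01% and 5.71% of all genes. Against CD8, 16 were higher and 18 lower in 4T1, beside 22.7% and 17.9%. In CD8 against CD4, 5 were higher and 4 lower, beside 3.47% and 9.09%. In the comparison of 4T1 with CD8 the share of higher genes was near that of all genes. The chemokine gene Cxcl10 was higher in 4T1 than in CD4 (0.79, adjusted p = 0.0183) and in CD8 (1.34, adjusted p = 9.23e-05), and Ccl5 was higher in CD8 than in CD4 (3.24, adjusted p = 0.000102).

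None of the pathway genes passed after C269 in any population. Ccl5 had the smallest p in CD8 (0.95, SE 0.271, adjusted p = 0.739) and in CD4 (0.65, SE 0.239, adjusted p = 0.865). Trim56 in CD8 (-0.66, SE 0.211, adjusted p = 0.739) did not pass either. Ifnar1 in CD4 had 26.5 to 73.9 CPM in CTRL and 67.9 to 94.3 CPM in C269 (0.58, SE 0.228, adjusted p = 0.865).

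Some members share sequence, and their counts are uncertain. Of the 50-base stretches of Ifit3, 51.2% also occur in Ifit3b, and of those of Oas1a, 57.6% occur in Oas1g. Ifit3 had 16.1 to 88.6 CPM in 4T1 CTRL and 12.8 to 33.1 CPM in 4T1 C269. Ifit3b had 0 to 49 counts per library and Oas1g 0 to 67, and Oas1g fell under the count filter in CD4 C269, CD8 C269 and the CTRL comparisons. In 4T1 C269, Oas1a (0.0036, SE 0.518) and Oas1g (0.25, SE 0.705) did not pass. Without libraries 9 and 10 they had 0.048 (SE 0.637) and -0.96 (SE 0.818, adjusted p = 0.897), and library 10, at 12.9 CPM of Oas1g, lay above the other 8 4T1 libraries (at most 7.24 CPM). In CD8 against CD4, Ifit3 (1.12, SE 0.43, adjusted p = 0.102) and Ifit3b (1.03, SE 0.458, adjusted p = 0.165) had like estimates.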

How the data were processed

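Counts per gene and library were deposited by the authors in 3 tables, 1 per population, without normalization. Per the submitters' processing notes, reads were counted with featureCounts and groups compared with DESeq2, and mm9 is named as the build. The aligner is not given in the sources used here. The log2 fold change and the p-value columns, per the file headers, come from the authors' DESeq2 run, as CTRL over C269. Coordinates are those of GRCm38, since 99.6% of gene starts matched GENCODE M21. Library columns were assigned to groups by the deposited condition sums, which 1 of 252 sets of 5 columns matched in each case.

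Here, 7 ribosomal RNA features (0.579% to 7.95% of counts per library) were left out. The counts were tested with edgeR 4.0.16 (R 4.3.3) after filterByExpr and TMM normalization. The treatments were compared inside each population, populations were compared in 1 fit of the CTRL libraries, and C269 effects in 1 fit of 30 libraries. Alternatives were DESeq2 1.42.0, other scalings, no filter, limma 3.58.1 on log2(CPM + 1) and leaving out single libraries. The edgeR comparisons of treatments and of CTRL populations were also run on simulated counts, drawn for independent libraries from edgeR's fitted spread. Such counts cannot show how the test behaves with outlying or near-equal libraries.

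Genes were named by rule: the 6 with the smallest p per C269 comparison, up to 4 called genes with the largest fold per direction between CTRL populations, a few always (Isg15, Irf7, Irf9, Stat2, Usp18 and near-identical pairs), and pathway genes by smallest p. Other names were chosen after their values were seen. The members and lists were chosen with earlier results of these data known. Some results on 1 pathway gene are not reported here.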

Additional observations from a re-analysis of the deposited data

Results flagged for a closer look

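In 162 sets of 5 libraries (26 named genes and the mean over all 37, in 6 groups), 16 had 1 library whose gap to the next exceeded 0.71 of the whole range, Dixon's limit for 5 values at 95%. Chance flags about 1 set in 20, and genes of a library are not independent. In 4T1 CTRL these were Oasl1 in library 2 (437 CPM) and Zbp1 in library 5 (24.9 CPM, the lowest). In 4T1 C269, library 8 was the highest for Ifit3 (33.1 CPM), Mx1 (34.0 CPM) and Ifi47 (133 CPM).

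In CD4 CTRL, library 11 was the highest for Ifit3 (46.85 CPM). Library 14 was the highest for Oasl2 (81.5 CPM), Cmpk2 (28.8 CPM), Ifitm3 (1374 CPM) and Ifi204 (138 CPM). In CD4 C269, library 19 was the highest for Ifit3 (51.4 CPM), Mx1 (39.4 CPM), Oas3 (34.4 CPM) and Dhx58 (29.7 CPM). In CD8 CTRL, library 25 was the highest for Rsad2 (198 CPM) and Irf9 (137 CPM). None was flagged in CD8 C269.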

How the results depend on the processing

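Of the recomputed counts of called genes, 409 were equal to the main count or within 1.5 times of it, and 43 were not. A count of 0 that stayed 0 was among the former, and every main count after C269 and in the differences of effects was 0. The edgeR test called members only between CTRL populations. The 8 calls in 4T1 over CD4, each recomputed in 15 settings, were lost in 41 of 120 values, the 9 in 4T1 over CD8 in 10 of 135 (all of Ifih1) and the 3 in CD8 under CD4 in 0 of 45. None of these differences changed sign. The causes were not tested. With DESeq2, 1 member was called lower and 1 pathway gene higher in 4T1 C269, 1 member lower and 14 pathway genes higher in 4T1 over CD4, and 1 member lower and 1 pathway gene higher in the effect of 4T1 minus CD8. With library totals only, 4T1 over CD4 had 5 members higher and 2 lower, and 4T1 over CD8 had 1 lower. With limma, these were 5, 2 and 1, and 10 pathway genes were lower in 4T1 than in CD4. With no filter on low counts, CD8 C269 had 2 pathway genes higher and 1 lower.

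Leaving out 1 library at a time gave, in CD8 over CD4, 0 to 1 members higher, 3 to 4 lower, and 3 to 5 pathway genes higher and 2 to 5 lower. In 4T1 over CD4 it gave 2 to 9 members higher and 0 to 2 lower, and 2 to 9 pathway genes higher and 3 to 7 lower. In 4T1 over CD8 it gave 8 to 11 members higher and 0 to 1 lower, and 13 to 18 pathway genes higher and 11 to 22 lower. Over all genes, these fits called 1133 to 1482 genes in CD8 over CD4, 998 to 1938 in 4T1 over CD4 and 4675 to 5447 in 4T1 over CD8. No paired analysis was possible because the library columns carry no replicate letters. Depth limits Oas1g and Ifit3b most.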
